A study of Mus musculus with 21 samples.

Results

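The 40 imprinted genes described here were taken by name from a table of 24458 genes measured in wild type and Rinf knockout mouse embryoid bodies. An imprinted gene is read mainly from the copy inherited from 1 parent. The mark that tells the copies apart is DNA methylation laid down in egg or sperm at a differentially methylated region, and it is kept through the cell divisions that follow by proteins such as ZFP57, TRIM28 and DNMT1. Many imprinted genes act on growth of the embryo and placenta, and they lie in clusters under a shared control region. By textbook assignment, 19 of the 40 are read from the paternal copy and 18 from the maternal copy, and 3 (Gnas, Inpp5f and H13) differ by isoform. The Snrpn and Ube3a locus was left out. The values do not separate the parental copies, so a level below is the sum of both.

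RNA was sequenced from embryonic stem cells (ESCs) at day 0 and from the embryoid bodies, aggregates in which such cells differentiate, that they had formed in hanging drops by days 3 and 6. The cells had a mixed 129/C57BL/6 background and were cultured with serum and LIF, a cytokine that holds ESCs undifferentiated, and each genotype (Rinf wild type and Rinf knockout) was represented by 2 independent ESC lines. Rinf, also called Cxxc5, is a member of the CXXC family, whose zinc finger recognises CG sites that lack methylation. There were 2 libraries for each of the 6 groups, 12 in all. The p-values measure the spread between these libraries, since the labels do not say that a replicate number marks the same line on each day. For each gene this spread was shared by all groups, so wide day 6 pairs also entered its tests at days 0 and 3. In the same way, close pairs of days 0 and 3 entered its day 6 tests. Levels are given as FPKM, the fragments per kilobase of a transcript relative to the mapped fragments of its library, so they are scaled by transcript length. Fold changes are differences of log2(FPKM + 1), which understate the change of genes near an FPKM of 1 or below. A gene was called higher or lower at an adjusted p under 0.05 in limma, a linear model fitted to the 12472 genes whose mean FPKM was 1 or more.

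Of the 40 genes, 34 were tested. The other 6 (Airn, Dlk1, Nap1l5, Peg13, Slc22a18 and Usp29) had a mean FPKM under 1 and are given as values. The 34 hold every listed maternal gene except Slc22a18, 14 of the 19 paternal genes, and all 3 that differ by isoform.

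The sequences just before the starts of 6 members are shown because the results turn on these genes and because a CG is the unit that carries the imprint. Capitals mark each CG; all other letters are lower case. They are written 5′ to 3′ on the strand of the gene, from RefSeq on the GRCm38.p6 build. Plagl1 (chr10:13090582-13090831, plus strand), Kcnq1ot1 (chr7:143296548-143296797, minus strand) and Nnat (chr2:157559828-157560077, plus strand) start in regions that are methylated on the maternal copy. Sfmbt2 (chr2:10370201-10370439, plus strand) is a further paternally expressed gene. The Peg3 stretch (chr7:6730463-6730558, minus strand) is the whole interval between Peg3 and Usp29, which start back to back. Igf2r (chr17:12769707-12769956, minus strand) is shown as a maternally expressed gene for comparison.
Sfmbt2: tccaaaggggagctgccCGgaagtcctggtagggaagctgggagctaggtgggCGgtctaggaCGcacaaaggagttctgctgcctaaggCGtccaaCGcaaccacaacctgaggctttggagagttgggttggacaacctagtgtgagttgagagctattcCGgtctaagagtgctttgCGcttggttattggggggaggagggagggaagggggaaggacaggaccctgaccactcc
Plagl1: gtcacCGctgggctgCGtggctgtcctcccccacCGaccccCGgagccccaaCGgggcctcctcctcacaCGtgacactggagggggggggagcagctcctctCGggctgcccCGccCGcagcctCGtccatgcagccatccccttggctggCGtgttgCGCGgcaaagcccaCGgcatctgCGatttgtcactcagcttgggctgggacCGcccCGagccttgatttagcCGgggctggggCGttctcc
Kcnq1ot1: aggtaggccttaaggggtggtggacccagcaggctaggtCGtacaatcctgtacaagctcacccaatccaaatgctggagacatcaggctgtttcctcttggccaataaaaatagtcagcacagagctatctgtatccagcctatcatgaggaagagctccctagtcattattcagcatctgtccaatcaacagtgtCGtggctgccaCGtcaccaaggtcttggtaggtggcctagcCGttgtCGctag
Peg3: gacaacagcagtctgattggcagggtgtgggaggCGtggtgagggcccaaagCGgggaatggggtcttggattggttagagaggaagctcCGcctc
Nnat: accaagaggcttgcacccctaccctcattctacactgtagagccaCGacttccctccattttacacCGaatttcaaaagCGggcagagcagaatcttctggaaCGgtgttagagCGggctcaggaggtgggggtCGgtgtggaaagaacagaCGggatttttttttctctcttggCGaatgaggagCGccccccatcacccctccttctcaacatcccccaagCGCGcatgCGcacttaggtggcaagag
Igf2r: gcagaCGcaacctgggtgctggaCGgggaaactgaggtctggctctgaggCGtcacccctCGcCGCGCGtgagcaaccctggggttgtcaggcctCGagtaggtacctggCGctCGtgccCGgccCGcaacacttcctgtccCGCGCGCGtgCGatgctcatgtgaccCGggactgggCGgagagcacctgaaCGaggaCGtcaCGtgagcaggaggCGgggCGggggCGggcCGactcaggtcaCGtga
These stretches hold 7, 19, 5, 3, 12 and 27 CGs in the order printed. The Sfmbt2 and Peg3 stretches are shorter than the others, at 239 and 96 bases. The windows of 250 bases from which they were cut hold 8 CGs for Sfmbt2 and 8 for Peg3. The median over 32851 RefSeq windows of 250 bases before a start was 6 CGs. Over the 45 windows of 31 members with an entry, with Impact left out, it was 12. The hexamer TGCCGC, which ZFP57 binds when its CG is methylated, was searched on both strands. It was present in 8.676% of all windows and in 8 of the 45 member windows (17.778%), namely in 5 of 12 windows at starts with a germline differentially methylated region and in 3 of 33 others. Windows of a gene can overlap, as the pair at Mest that hold the hexamer do, and by gene these are 4 of 10 and 3 of 21. Its CG is among the CGs counted above. A match is a description of the letters in the window only.

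As a check of the labels, Cxxc5 lay between 25.1 and 52.3 FPKM in the wild type libraries and between 5.05 and 11.9 in the knockout libraries. Which part was deleted is not stated in the labels. The summed FPKM of 3 Y chromosome genes was 14.8 to 30.9 in wild type and 2.48 to 7.82 in knockout libraries, a difference between the lines that moves with genotype on every day; its part in the results below was not tested. Depth, estimated from the step that 1 read makes in low values, ran from 15.4 M to 33.4 M reads, so an FPKM of 1 in a 2 kb transcript rests on about 30.9 to 66.7 reads.

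From day 0 to day 6 most of the imprinted genes rose in both genotypes. In wild type, 22 of 34 rose and 3 fell; in knockout, 24 rose and 3 fell. Over all genes tested, 31.5% rose and 35.4% fell in wild type (67% in all), and 35.5% rose and 37.5% fell in knockout (73% in all). Genes of both parental classes rose. In wild type 9 of 17 maternal and 10 of 14 paternal genes rose, and in knockout 13 of 17 and 8 of 14 did. At day 3 the counts against day 0 were 13 higher and 6 lower in wild type (25.5% and 30.2% of all genes, 55.7% together) and 15 higher and 2 lower in knockout (24.6% and 28% of all genes, 52.6% together). The knockout count of 17 was 11 without knockout replicate 1 of day 0 or without knockout replicate 2 of day 3. The genes that fell by day 3 in wild type were Phlda2, Ppp1r9a, Copg2, Mcts2, Zrsr1 and Sfmbt2, and in knockout Ppp1r9a and Mcts2. The 3 that were below day 0 at day 6 were Kcnq1ot1, Ppp1r9a and Sfmbt2 in both genotypes. The days 3 and 6 are set against the same day 0 libraries, so these counts are not independent of each other. The share of all genes called in the leave-outs is not given here.

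**Figure D1:**
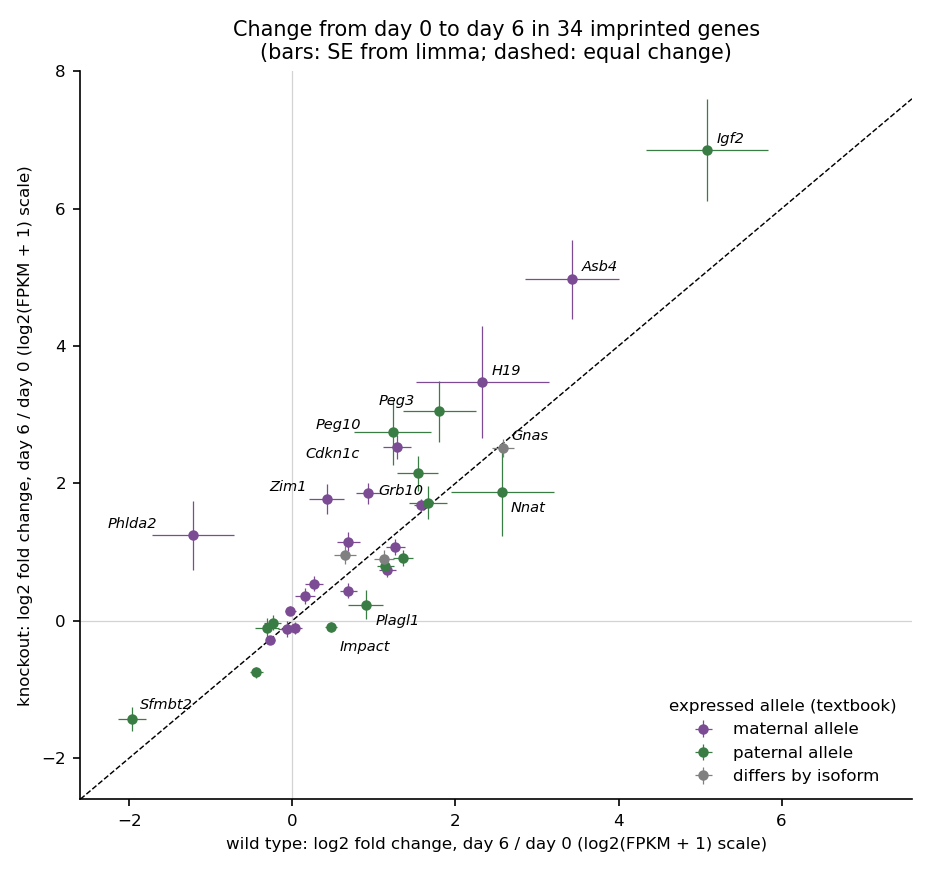
Log2 fold change from day 0 to day 6 on the log2(FPKM + 1) scale, wild type on the x axis and knockout on the y axis, 1 point for each of the 34 tested genes, coloured by expressed parental copy; bars are the SE from limma and the dashed line marks equal change. Igf2 lies at 5.09 in wild type and 6.86 in knockout, and Sfmbt2 lies lowest in both at -1.97 and -1.43.

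Igf2 (chr7:142650768-142666816), a paternally expressed fetal growth factor, had the largest rise of the 34 genes on the log2(FPKM + 1) scale. Its day 0 levels were 1.64 and 1.68 FPKM in wild type and 2.56 and 2.53 in knockout. At day 6 they were 32.5 and 243 in wild type and 278 and 603 in knockout. Knockout libraries were the higher ones on each of the 3 days without overlap, and the wild type day 6 pair spread widely. The day 6 change from day 0 was 5.09 ± 0.75 (log2, SE) in wild type, adjusted p = 3.46e-04, and 6.86 ± 0.75 in knockout, adjusted p = 4.75e-05. Of the exonic bases of Igf2, 62.8% are shared on the same strand with Gm49394, so reads there could be assigned to either gene.

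The Igf2 difference between genotypes did not pass the test on any day in the fit of all libraries, with log2 values of 0.41, 1.25 and 2.18 on days 0, 3 and 6. The adjusted p was 0.862, 0.470 and 0.0517 in turn. The day 6 difference was 3.61 and passed without wild type replicate 2 (adjusted p = 5.29e-04), and was 0.75 without wild type replicate 1 (adjusted p = 0.182). At day 3 the 4 libraries were close within genotype, 7.25 and 6.06 FPKM in wild type against 15.8 and 18.7 in knockout. When the day 6 libraries were left out of the fit, the same day 3 difference had an adjusted p of 0.00356, and with the day 3 libraries alone 0.0304.

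H19, the maternally expressed noncoding RNA next to Igf2, shares its enhancers and is normally read from the opposite copy. Its day 6 levels were 11.5 and 80.1 FPKM in wild type and 26.7 and 72.5 in knockout, so the genotypes overlapped. At day 0 they were 4.66 and 6.09 in wild type against 2.53 and 3.62 in knockout. The H19 difference between genotypes was 0.50 ± 0.82 at day 6, adjusted p = 0.657, with a sign that depended on which library was left out. At days 0 and 3 H19 was 0.65 and 0.44 log2 units lower on average in the knockout, without passing the test, while Igf2 was higher on average. H19 rose from day 0 to day 6 in both genotypes, by 2.33 in wild type, adjusted p = 0.0313, and by 3.48 in knockout, adjusted p = 0.00415. The wild type call for H19 was kept in 6 of 11 alternative fits.

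Igf2r (chr17:12682406-12769706), the maternally expressed receptor that clears IGF2 from the cell surface, rose in both genotypes and ended higher in the knockout. Its day 6 levels were 23.4 and 28.5 FPKM in wild type and 34.3 and 47.4 in knockout, with no overlap. Day 3 also separated the groups, at 20.7 and 18.7 against 25.7 and 27.5. The day 6 difference was 0.62 ± 0.14, adjusted p = 0.0128, and was lost without wild type replicate 1 (0.49, adjusted p = 0.0755) or knockout replicate 2 (0.40, adjusted p = 0.0648). The day 3 difference of 0.42 had an adjusted p of 0.217, and of 0.0293 without the day 6 libraries. Airn, the paternal noncoding RNA that silences Igf2r in cis after ESCs differentiate, was at most 0.357 FPKM on days 0 and 3 and was listed at 0 in 1 library of each of those days. At day 6 Airn reached 0.820 and 1.04 in wild type and 1.68 and 3.65 in knockout, without overlap and untested. Thus both the receptor and the noncoding RNA from the other copy stood higher in the day 6 knockout libraries.

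The contrast between genotypes at day 6 covered 13 of the 34 tested genes, 8 higher and 5 lower in the knockout (38.2%). Among all genes tested, 34.1% were called, 17.9% higher and 16.2% lower, so the share of imprinted genes called was near the background. The median difference was 0.18 over the 34 genes and 0.02 over all genes. Of the 17 maternal genes, 5 were higher and 2 lower, and of the 14 paternal genes, 2 were higher and 3 lower. In 25 of the 34 genes the genotypes did not overlap (63.6% of all genes). Leaving out each of the 4 day 6 libraries in turn left from 6 to 14 genes called, and 5 of the 13 were called every time, namely Cdkn1c, Impact, Plagl1, Sfmbt2 and Zim1. With the 4 day 6 libraries fitted alone, and the expression minimum applied to them, 0 imprinted genes passed, against 115 genes in the whole table. The members tested in that fit were not the same 34, and the shares of all genes called in the leave-outs are not given here.

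**Figure D2:**
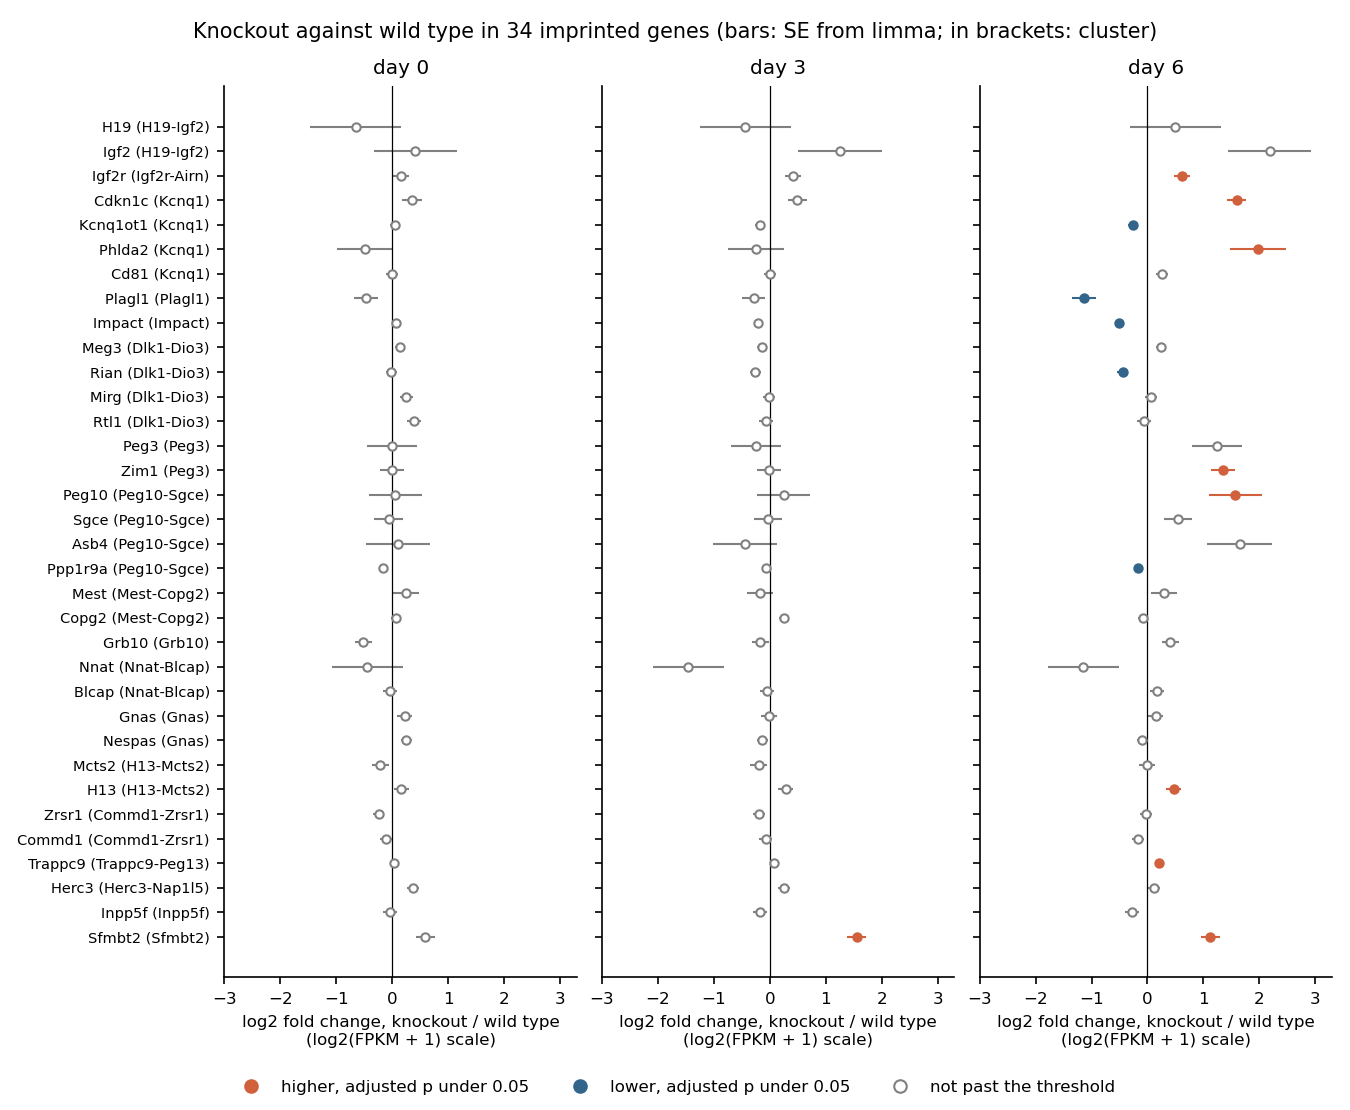
Knockout minus wild type on the log2(FPKM + 1) scale for the 34 tested genes, ordered by imprinted cluster (in brackets), in separate panels for the days; bars are the SE from limma, and filled points passed an adjusted p under 0.05. At day 3 Sfmbt2 alone is filled, at 1.56, and at day 6 13 genes are.

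Day 6 libraries also differed in their cell type markers. The summed FPKM of 10 lateral and cardiac mesoderm markers was 18.4 and 197 in wild type and 368 and 541 in knockout at day 6, with 9 of 9 tested markers called higher. For 8 trophoblast markers the sums were 160 and 375 against 597 and 913, with 5 of 7 called higher. Most of each sum came from Krt8 and Krt18, and Elf5, a defining marker, was at most 0.180 FPKM in any library. For 10 extraembryonic endoderm markers the sums were 133 and 187 against 216 and 318, with 4 of 6 called higher. Most of each came from Sparc, Lamb1 and Col4a1. Afp was at most 0.0350 FPKM in any library, and Amn, Apoa1 and Ttr at most 2.22. Neuroectoderm markers ran the other way, at 144 and 79.6 against 68.1 and 29.2, with 7 of 9 called lower. Feeder fibroblast markers summed to 10.7 and 16.3 against 18.7 and 33.0, with 2 of 6 called higher, and lay between 8.48 and 26.1 on days 0 and 3, highest in knockout replicate 1 of day 0. The mesoderm sum was 2.25 to 4.10 in all libraries of days 0 and 3. For 6 pluripotency markers the day 6 sums were 361 and 225 in wild type and 271 and 161 in knockout. In these sums wild type replicate 1 was highest and knockout replicate 2 lowest, but wild type replicate 2 lay below knockout replicate 1. Pou5f1 made up much of them, at 234 and 118 against 123 and 46.1. Tbx3 and Klf4 of this list stood higher in the knockout, Tbx3 at 62.6 and 75.2 against 5.13 and 29.3 in wild type. In the other lists the wild type libraries came first, from replicate 1 at one end to knockout replicate 2 at the other. That was also the order of Igf2, Igf2r, Cdkn1c, Phlda2, Peg10, Peg3, Zim1 and Asb4, which are named for it after their values were seen. Others did not follow it, H19, Sfmbt2, Rtl1 and Mirg among them. The part of cell composition in these results was not tested, and in bulk RNA fewer cells of a type and less RNA per cell cannot be told apart. Wild type replicate 1 was the lowest of the 4 day 6 libraries in 18 of the 34 imprinted genes and the highest in 5. Over all genes tested it was the lowest in 32.4% and the highest in 32%.

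In the Kcnq1 cluster on chromosome 7 the growth restrainers were higher in the day 6 knockout. Cdkn1c (chr7:143458339-143461059), a maternally expressed inhibitor of cyclin-dependent kinases, had 17.2 and 23.3 FPKM in wild type and 54.3 and 72.3 in knockout at day 6. The lowest knockout library stood far above the highest wild type library. The difference was 1.60 ± 0.17, adjusted p = 5.41e-04, and ran from 1.39 to 1.81 over the 4 leave-outs. On days 0 and 3 the knockout levels were also the higher ones, 9.40 and 10.7 against 7.52 and 7.76, and 15.3 and 17.8 against 12.5 and 10.4, without passing the test (adjusted p = 0.383 and 0.217). The difference at day 6 exceeded that at day 0 by 1.24 ± 0.24, adjusted p = 0.0175. Of the exonic bases of Cdkn1c, 30.7% are overlapped by Gm44732 on the opposite strand, and whether strand was used in counting is not stated.

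Phlda2 (chr7:143501545-143503145), a maternally expressed gene that restrains placental growth, had its lowest knockout levels at day 3. The wild type levels were 81.1 and 77.7 FPKM on day 0, 28.1 and 25.5 on day 3, and 16.3 and 67.7 on day 6. The knockout levels were 58.0 and 54.3, then 21.2 and 23.6, then 113 and 159. The knockout was thus the lower group on days 0 and 3 and the higher group on day 6, without overlap on any day. The day 6 difference of 1.97 ± 0.50 passed, adjusted p = 0.0178. It was 0.98 without wild type replicate 1 (adjusted p = 0.0110), 2.97 without wild type replicate 2, and was lost without knockout replicate 2 (adjusted p = 0.107). The day 0 difference of -0.49 did not pass in the fit of all libraries, adjusted p = 0.711, and passed when the day 6 libraries were left out, adjusted p = 0.0255. The change in the difference from day 0 to day 6, 2.46 ± 0.71, had an adjusted p of 0.0552.

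Kcnq1ot1 (chr7:143213111-143296547), the paternal noncoding RNA that silences this cluster in cis and lies inside Kcnq1, had 2.13 and 2.14 FPKM in wild type and 1.5 and 1.73 in knockout at day 6. Its difference was small, -0.26 ± 0.08, adjusted p = 0.0342, and was kept in 5 of 11 alternative fits. It fell from day 0 to day 6 in both genotypes, by 0.44 in wild type and by 0.75 in knockout (adjusted p = 0.00114 and 4.12e-05). Cd81, a tetraspanin of the cell membrane, was between 63.2 and 70.8 FPKM in all libraries up to day 3 and at 76.2 and 83.9 against 85.7 and 108 at day 6, adjusted p = 0.0886 (0.0130 without knockout replicate 1). Slc22a18, a membrane transporter under the expression minimum, had wild type levels of 1.62 and 1.46 at day 0 and of 0.239 and 0.546 at day 6, and stood at 0.734 and 0.945 in the day 6 knockout.

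**Figure D3:**
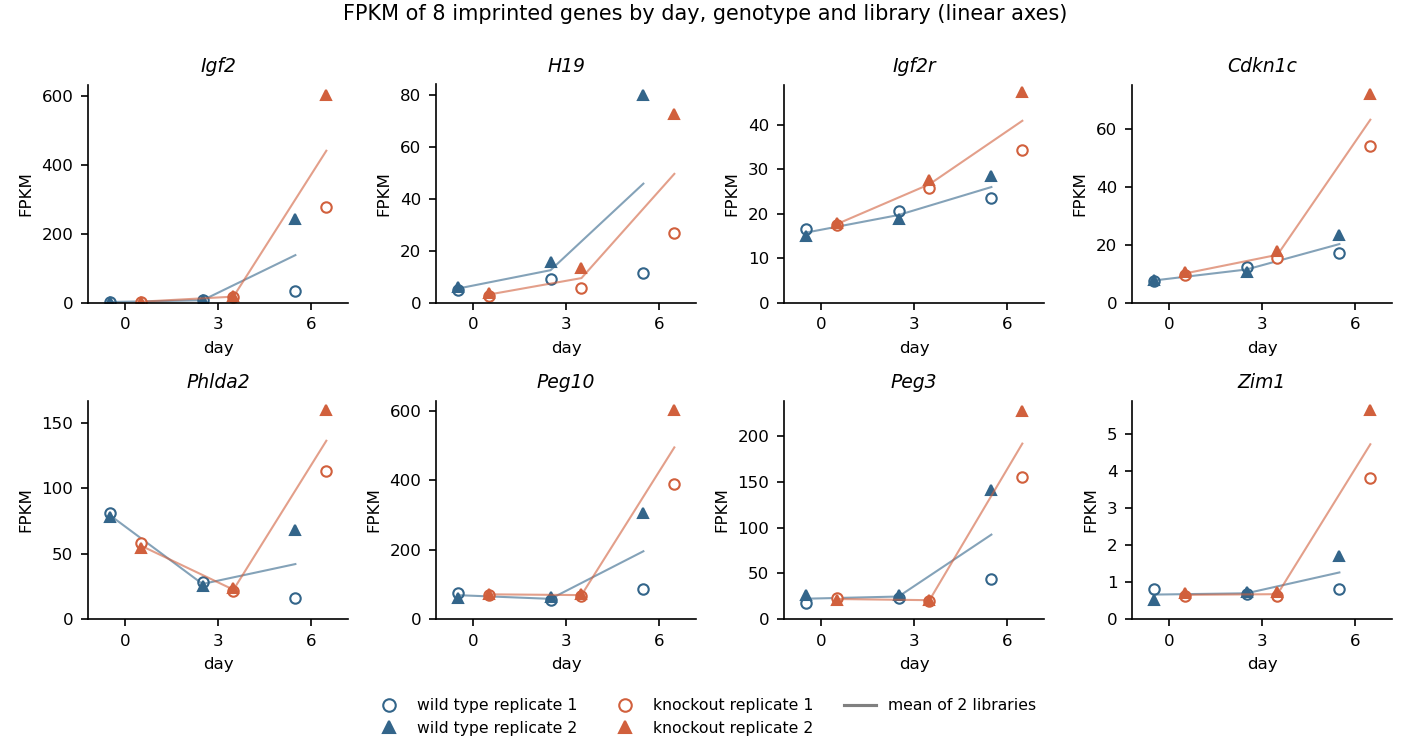
FPKM of 8 imprinted genes (y axes, linear, each with its own range) by day (x axes), open circles for replicate 1 and triangles for replicate 2, wild type blue and knockout orange; lines join the means of the 2 libraries. At day 6 wild type replicate 1 is the lowest of the 4 libraries in each of the 8 panels, for example 32.5 for Igf2 against 243 in wild type replicate 2.

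In the Peg10 and Peg3 clusters, neither Peg10, Peg3 nor Zim1 passed the test at day 3 against day 0 in either genotype, and the differences described here are those of day 6. Peg10 (chr6:4747306-4760517), a paternally expressed gene derived from a retrotransposon and needed for the placenta, lay between 54.0 and 76.1 FPKM in all libraries of days 0 and 3. At day 6 it had 86.3 and 304 in wild type and 388 and 601 in knockout, with the knockout above without overlap. The difference was 1.57 ± 0.47, adjusted p = 0.0335. It was lost without wild type replicate 1 (0.66, adjusted p = 0.0836), and also without knockout replicate 2 (1.25, adjusted p = 0.183). Sgce, which encodes a sarcoglycan and starts beside Peg10 on the other strand, had day 6 levels of 4.85 and 8.95 against 8.51 and 12.0, which overlapped.

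Asb4, a maternally expressed gene for a ubiquitin ligase adaptor of the same cluster, was almost silent at day 0, at 0.0549 to 0.207 FPKM. At day 6 it had 4.27 and 25.3 in wild type and 33.7 and 38.3 in knockout. It rose by 3.43 ± 0.58 in wild type and 4.97 ± 0.58 in knockout (adjusted p = 7.55e-04 and 6.78e-05). The order of Asb4 and Igf2 depended on the scale: with a pseudocount of 0.1 the rises were 5.8 for Asb4 and 5.66 for Igf2 in wild type, and 7.03 and 7.27 in knockout. The genotypes did not overlap at day 6, and the difference of 1.65 ± 0.58 had an adjusted p of 0.0552. It was 2.81 without wild type replicate 2, adjusted p = 7.31e-05, and 0.49 without wild type replicate 1, adjusted p = 0.0737. Ppp1r9a, a neuronal scaffold protein gene listed as maternal, was lower in the day 6 knockout by a small amount, at 6.96 and 7.45 against 8.18 and 8.36 (-0.18 ± 0.06, adjusted p = 0.0459). This call was kept in only 2 of 11 alternative fits.

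Peg3 (chr7:6703892-6730462), a paternally expressed zinc finger gene, had 44.1 and 141 FPKM in wild type and 156 and 228 in knockout at day 6, after 18.0 to 26.6 in all libraries of days 0 and 3. It rose in both genotypes, by 1.80 in wild type and 3.05 in knockout (adjusted p = 0.00644 and 2.75e-04), and the genotype difference of 1.25 ± 0.45 had an adjusted p of 0.0604. That difference was 2.07 without wild type replicate 2, adjusted p = 0.00122, and 0.42 without wild type replicate 1, adjusted p = 0.285. Usp29, read from the same interval in the other direction and untested, had 0.482 and 1.32 against 1.30 and 1.70 at day 6. The 2 genes that start from the shared stretch shown above both had their lowest day 6 value in wild type replicate 1. That library was the lowest of day 6 in 18 of the 34 tested members and in 32.4% of all genes tested.

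Zim1 (chr7:6674444-6696540), a zinc finger gene of the same cluster read from the opposite, maternal copy, was at 0.517 to 0.808 FPKM in all 8 libraries of days 0 and 3. At day 6 it had 0.808 and 1.72 in wild type and 3.82 and 5.65 in knockout, with no overlap. The difference was 1.35 ± 0.22, adjusted p = 0.00298, and lay between 1.06 and 1.65 over the 4 leave-outs. It rose from day 0 in the knockout, by 1.77 (adjusted p = 9.24e-05), while the wild type value of 0.42 did not pass (adjusted p = 0.116), and the difference between these changes passed at 1.35 ± 0.31, adjusted p = 0.0286, a call kept in 8 of 15 alternative fits. In this cluster the paternal Peg3 and the maternal Zim1 were thus both higher on average in the day 6 knockout.

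In the Dlk1-Dio3 cluster on chromosome 12 the tested genes behaved in another way: they rose early and in both genotypes. Its 4 tested genes, the maternal noncoding RNAs Meg3, Rian and Mirg and the paternal retrotransposon-derived Rtl1, had risen by day 3 and were still up at day 6 in wild type and in knockout, and every one of these calls was kept when each library was left out in turn. Meg3 went from 27.6 and 30.1 FPKM in wild type at day 0 to 81.3 and 72.3 by day 3 and 90.1 and 86.0 by day 6. In the knockout it went from 31.1 and 32.9 to 71.3 and 68.5 and then to 96.5 and 113. The day 3 changes of the 4 genes ran from 1.26 (Rian) to 1.53 (Rtl1) in wild type and from 1.01 (Rian) to 1.10 (Meg3) in knockout. Rtl1 lies on the strand opposite to Meg3, and the spans of the genes overlap. Of its exonic bases, 8.1% are overlapped by miRNA genes on that opposite strand. Whether strand was used in counting is not stated, so part of the Rtl1 level could come from maternal RNA. An early rise was not particular to this cluster: Gnas, Herc3, Impact and Inpp5f were also called higher at day 3 in both genotypes.

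Rian (chr12:109603945-109661716), a host of small nucleolar RNAs, was the member of this cluster that differed between genotypes. Its day 6 levels were 136 and 125 FPKM in wild type and 89.5 and 102 in knockout, without overlap, after 63.2 and 52.6 against 59.0 and 55.4 at day 0, which overlapped. The day 6 difference was -0.44 ± 0.10, adjusted p = 0.0127. It was lost without wild type replicate 1 (-0.38, adjusted p = 0.0683) or knockout replicate 1 (-0.35, adjusted p = 0.0575). Meg3, from the same strand and the same parental copy, had a difference of the other sign at day 6, 0.24 ± 0.09, which did not pass (adjusted p = 0.0646) except without knockout replicate 1 (0.36, adjusted p = 0.0224). Rtl1 lay at 7.48 and 5.68 against 6.14 and 6.33, and Mirg at 17.2 and 15.2 against 16.4 and 17.5. Dlk1, the paternal Notch-like ligand that gives the cluster its name, was untested. It lay between 0.154 and 0.259 FPKM at day 0 and between 0.290 and 0.391 at day 3. At day 6 it reached 0.795 and 1.69 in wild type and 1.70 and 2.86 in knockout.

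Sfmbt2 (chr2:10370440-10595253) was the 1 member called between genotypes before day 6 in the fit of all libraries. It encodes a Polycomb group protein, is read from the paternal copy in extraembryonic tissue, and carries a large miRNA cluster in an intron. At day 0 it had 26.3 and 19.4 FPKM in wild type and 32.3 and 36.7 in knockout. Its day 3 levels were 10.7 and 10.9 against 29.8 and 38.1. By day 6 they were down to 5.83 and 4.31 against 12.3 and 12.0. Knockout libraries were higher without overlap on all 3 days. At day 3 Sfmbt2 was the only 1 of the 34 imprinted genes that passed, against 1.19% of all genes (1.12% higher), with a difference of 1.56 ± 0.17, adjusted p = 0.00862. That call was lost without wild type replicate 1, wild type replicate 2 or knockout replicate 2 of day 3 (adjusted p = 0.0617, 0.0566 and 0.0883), while the difference stayed between 1.39 and 1.73.

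In wild type Sfmbt2 fell by 1.00 from day 0 to day 3, adjusted p = 0.00118, whereas the knockout value was -0.03, adjusted p = 0.914. The test of the difference between these changes gave 0.97 ± 0.24, adjusted p = 0.388, so a later fall in the knockout was not shown by it. In limma 0 of the 34 imprinted genes passed that test for day 3 (4 at an unadjusted p under 0.05), against 0.0401% of all genes. By day 6 Sfmbt2 had fallen in both genotypes, by 1.97 in wild type and 1.43 in knockout (adjusted p = 1.84e-05 and 7.89e-05), and remained 1.12 ± 0.17 higher in the knockout, adjusted p = 0.00235. The summed trophoblast markers also stood higher in the knockout at day 3, at 75.8 and 64.9 FPKM in wild type against 120.4 and 122 in knockout. They already did so at day 0, at 51.2 and 50.6 against 83.1 and 79.9. Most of the day 3 knockout sum came from Krt8 (41.7 and 39.3), Krt18 (46.0 and 41.9) and Tfap2c (28.6 and 35.2). Cdx2 was at 0.186 and 0.200 there, and Elf5 at 0.171 and 0.144. The part of these markers in the Sfmbt2 difference was not tested.

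Plagl1 (chr10:13090832-13131694), a paternally expressed zinc finger transcription factor known for acting on other imprinted genes, was lower in the knockout. Its levels were low throughout, 0.954 and 1.46 FPKM against 0.691 and 0.495 on day 0. The day 3 levels were 2.28 and 3.32 against 2.04 and 2.12, and those of day 6 were 4.0 and 2.34 against 0.925 and 0.807. Knockout libraries were the lower ones on each day without overlap. The day 6 difference was -1.13 ± 0.21, adjusted p = 0.00565, and ran from -1.42 to -0.84 over the 4 leave-outs. Both genotypes rose by day 3, by 0.78 in wild type and 0.95 in knockout (adjusted p = 0.0133 and 0.00550). At day 6 wild type was still 0.90 above day 0, adjusted p = 0.00519, and the knockout value was 0.23, adjusted p = 0.352. The difference between these changes did not pass (-0.67 ± 0.30, adjusted p = 0.166).

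Impact, a paternally expressed regulator of translation under stress, had closely matched replicates. It had 33.2 and 33.3 FPKM in wild type and 34 and 35.5 in knockout at day 0. It peaked at day 3 with 109 and 109 against 96.1 and 93.0, and had 50.4 and 43.0 against 32.2 and 33.0 at day 6. The knockout was the higher group at day 0 and the lower group on days 3 and 6. The rise to day 3 was 1.68 ± 0.07 in wild type and 1.42 ± 0.07 in knockout (adjusted p = 1.19e-06 and 3.92e-06). The day 6 difference was -0.50 ± 0.07, adjusted p = 0.00178, and was kept in 10 of 11 alternative fits. It had changed from day 0 by -0.56 ± 0.10, adjusted p = 0.0134.

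**Figure D4:**
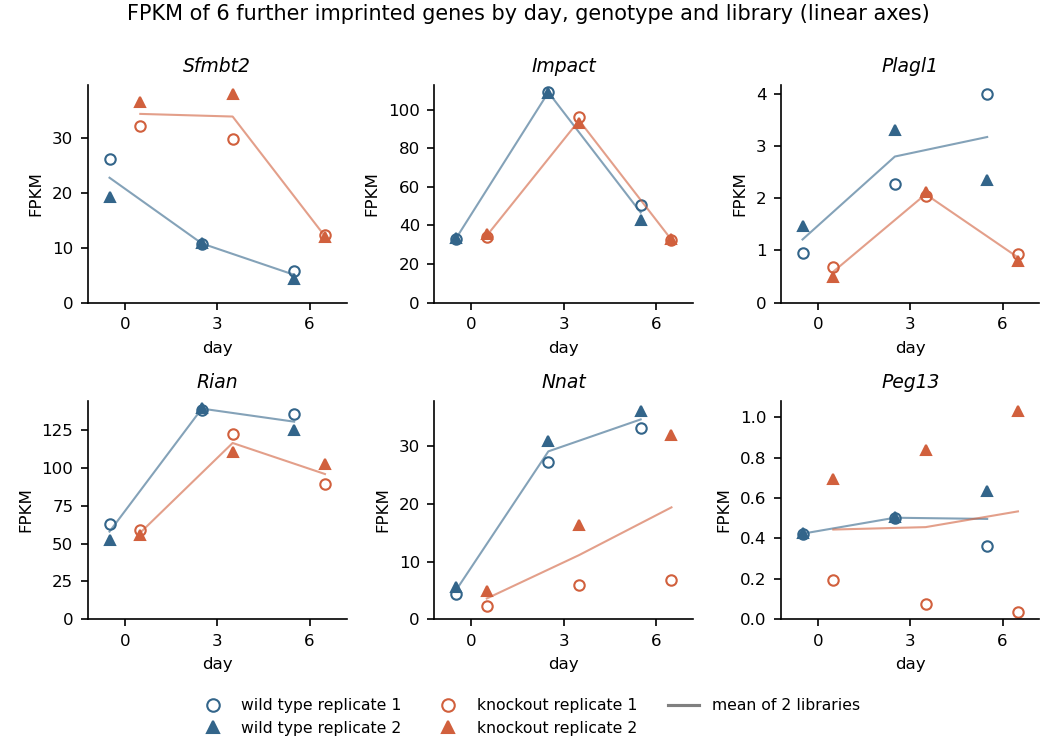
FPKM of 6 further imprinted genes (y axes, linear, each with its own range) by day (x axes), open circles for replicate 1 and triangles for replicate 2, wild type blue and knockout orange; lines join the means of the 2 libraries. In knockout replicate 1 Nnat stays at 2.26 to 6.84 and Peg13 at 0.0364 to 0.193 on the 3 days, below the other libraries of the same day.

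Grb10 (chr11:11930499-12037428), a maternally expressed adaptor that restrains insulin and growth factor signalling, changed sides between days. At day 0 it had 51.0 and 45.8 FPKM in wild type and 31.1 and 36.0 in knockout, and at day 6 87.3 and 99.0 against 103 and 148. The groups did not overlap on either day. Neither difference passed in the fit of all libraries (-0.52 ± 0.15, adjusted p = 0.178, and 0.41 ± 0.15, adjusted p = 0.0710), while the change between them did, at 0.92 ± 0.22, adjusted p = 0.0317. Without the day 6 libraries the day 0 difference passed, adjusted p = 0.0290, and without knockout replicate 1 the day 6 difference did, at 0.67, adjusted p = 0.00615. Grb10 rose to day 6 in both genotypes, by 0.93 and 1.85.

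Taking the differences between genotypes at day 6 and day 0 against each other, 4 of the 34 genes changed, Cdkn1c, Zim1 and Grb10 upward and Impact downward, against 12.2% of all genes (5.28% upward and 6.9% downward). None of the 4 calls was kept in every leave-out. Cdkn1c was lost without wild type replicate 2 or either knockout library of day 0, or knockout replicate 2 of day 6 (adjusted p = 0.0505 to 0.0768). Zim1 was lost without wild type replicate 1 or either knockout library of day 0, or wild type replicate 1 or knockout replicate 2 of day 6 (0.0514 to 0.0980). Grb10 was lost without any library of day 0 or wild type replicate 1 of day 6 (0.0584 to 0.117), and Impact without either knockout library of day 0 (0.0514 and 0.0608). The count was 0 without knockout replicate 1 or knockout replicate 2 of day 0, 2 without wild type replicate 2 of day 0 or knockout replicate 2 of day 6, and 12 without wild type replicate 2 of day 6. At day 0 itself 0 of the 34 genes differed between genotypes in limma (7 at an unadjusted p under 0.05), and 0.369% of all genes did. Without the day 6 libraries, 2 of 32 were called at day 0, Grb10 and Phlda2, both lower in the knockout. The shares of all genes called in that fit and in the leave-outs are not given here. At day 0 the genotypes did not overlap in 21 of the 34 genes (49.8% of all genes) and at day 3 in 24 (60.3%).

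Nnat (chr2:157560078-157562525), a paternally expressed proteolipid gene inside an intron of Blcap, set the knockout libraries apart from each other. In the wild type Nnat had 4.38 and 5.64 FPKM on day 0, 27.4 and 30.9 on day 3, and 33.2 and 36.2 on day 6. Knockout replicate 1 had 2.26, 5.92 and 6.84 on those days, and knockout replicate 2 had 4.91, 16.3 and 32.0. Replicate 1 was thus the lowest of the 4 libraries on each day. The genotype difference at day 6 was -1.15 ± 0.64, adjusted p = 0.189, and without knockout replicate 2 it was -2.19, adjusted p = 0.0313. Nnat rose to day 6 by 2.58 in wild type, adjusted p = 0.00638, and by 1.87 in knockout, adjusted p = 0.0253. Blcap, its host gene read from the other strand, lay between 8.44 and 13.9 FPKM in all libraries.

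Peg13, a paternal noncoding RNA inside Trappc9, divided the same knockout libraries. It had 0.193, 0.0725 and 0.0364 FPKM in knockout replicate 1 on days 0, 3 and 6, about 20, 10 and 5 reads at the estimated depths. Knockout replicate 2 had 0.695, 0.839 and 1.03, about 57, 132 and 140 reads, and the wild type libraries lay between 0.360 and 0.633 on all days. Replicate 1 was below and replicate 2 above every wild type library on each day. By a difference of at least 1 on the log2(FPKM + 1) scale in the same direction on all 3 days, 0 of the 34 tested genes separated the replicates of either genotype, against 0.0481% of all genes in wild type and 0.016% in knockout. At 1.5-fold Nnat was 1 of 8 genes in the knockout (0.0641%). With a pseudocount of 0.1 and a mean FPKM of at least 0.1, a setting chosen after seeing these values, Nnat and Peg13 were among 7 such genes (0.0431%). Since 1 library stands against 1 on each day, there is no test, and the labels do not tie the numbers to a line.

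Trappc9, the host of Peg13 and a gene for a vesicle trafficking factor, was slightly higher in the day 6 knockout, at 15.1 and 15.5 FPKM against 13.2 and 13.1 (0.20 ± 0.06, adjusted p = 0.0404), a call kept in 3 of 11 alternative fits. H13, a signal peptide peptidase gene, had 21.3 and 26.7 against 16.2 and 17.7 (0.47 ± 0.14, adjusted p = 0.0278). That call was lost without wild type replicate 1 (0.41, adjusted p = 0.125) or knockout replicate 2 (0.31, adjusted p = 0.176). Mcts2, a paternal retrogene inside H13, had 21.7 and 27.7 FPKM in wild type and 25.0 and 23.9 in knockout at day 6. Zrsr1, a paternal retrogene inside Commd1, had 3.85 and 3.99 against 3.77 and 3.87. Both retrogenes are close copies of a parent gene elsewhere, so how reads were shared between copy and parent is uncertain.

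Gnas, which encodes the stimulatory G protein alpha subunit and several imprinted isoforms, was the most abundant member, with a mean of 294 FPKM over the 12 libraries. It had 82.8 and 78.9 in wild type and 97.1 and 91.7 in knockout at day 0, and 426 and 562 against 488 and 603 at day 6. It rose by 2.58 in wild type and 2.51 in knockout (adjusted p = 1.58e-06 and 1.61e-06). Its antisense partner Nespas, read from the paternal copy, rose by 1.14 and 0.80 (adjusted p = 2.08e-05 and 1.15e-04). Of the exonic bases, 22.0% of Gnas and 38.5% of Nespas overlap genes on the other strand, so their reads could not be told apart without strand. Mest, a paternal hydrolase gene, rose in both genotypes, by 1.66 and 1.72 (adjusted p = 2.96e-04 and 1.95e-04), and Copg2, a coatomer subunit gene that overlaps its end, lay between 11.4 and 16.9 FPKM in all libraries.

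Among the rest, Herc3, a ubiquitin ligase gene, rose to day 6 by 0.69 in wild type and 0.44 in knockout (adjusted p = 5.25e-04 and 0.00557). Nap1l5, a nucleosome assembly gene inside Herc3 and untested, lay between 0.230 and 1.20 FPKM. Inpp5f, a phosphoinositide phosphatase gene, rose by 1.13 and 0.90 (adjusted p = 6.84e-05 and 1.96e-04). Commd1, a gene for a regulator of copper and protein trafficking, lay between 54.1 and 76.7 FPKM and passed no test here.

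Of 20 genes that set, keep or remove the methylation of imprints, all tested, most fell over the same days. In wild type 13 fell and 6 rose by day 6, against 35.4% and 31.5% of all genes. In knockout 14 fell and 2 rose, against 37.5% and 35.5%. The 20 include Tet1, Tet2 and Tet3, whose enzymes act in removing methylation, so these are not counts of keepers alone. Zfp57, which binds the methylated hexamer above, fell by 2.79 in wild type and 2.62 in knockout, and Trim28, its corepressor, fell by 0.88 and 0.91. The summed level of the 20 was 1415 and 1134 FPKM in wild type and 1117 and 987 in knockout at day 6. Between genotypes 2 were higher and 6 lower at day 6 (40% in all), near the 34.1% of all genes. Dnmt1, the maintenance methyltransferase, was 0.31 ± 0.05 higher, adjusted p = 0.00410, and Hells, a chromatin remodeller, was 0.87 log2 units lower on average, adjusted p = 0.00379. At day 3 Dppa3, which protects the maternal genome from demethylation, was the only 1 called, 1.62 ± 0.30 higher, adjusted p = 0.0468. Of 28 further imprinted genes outside the 40, 14 were tested, and 1 was higher and 3 lower in the day 6 knockout (28.6%, against 34.1% of all genes).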

How the data were processed

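The FPKM values were deposited by the authors in a table with 1 column for each of the 12 embryoid body libraries. Sequencing was single-end on total RNA, and reads trimmed in Trim Galore 0.4.1 were aligned to mm10 by TopHat2 2.0.13, per the labels' protocols. HTSeq 0.6.1, Cufflinks 2.2.1 and Cuffdiff are named in the submitters' processing notes, without saying which made these values. Annotation and strand: not given in the sources used here. Library medians of log2 ratios spanned 0.00690, so the values had been scaled to one another.

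limma 3.58.1 in R 4.3.3 was run on log2(FPKM + 1), with 1 mean for each of 6 groups, a mean-variance trend and two-sided tests, and p-values were adjusted by Benjamini and Hochberg over 12472 genes. The procedure was run on simulated data in which a gene had the same spread in every library. That run could not show how wider pairs at day 6 act on the calls. The members and all lists were chosen with earlier results of these data known. Named in the text were members past the threshold between genotypes, the 10 with the largest change to day 6, the most abundant of each cluster, and any that separated the replicates. Library values were given for most of these, for some only on part of the days or as a range. For Mest, Herc3 and Inpp5f only fold changes were given. Alternatives were other pseudocounts and filters, no trend, fewer libraries, each library left out and a replicate block. Correlations between replicates over genes lay between 0.9663 and 0.9852. A stem cell table with 6 series of values, 3 for each genotype, was not used here because its rows could not be tied to samples, and the ChIP-seq libraries were not analysed here.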

Additional observations from a re-analysis of the deposited data

Results flagged for a closer look

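For 4 imprinted genes the difference between knockout and wild type at day 6 was not the same as at day 0 by limma's test of that change. It was 1.24 for Cdkn1c, 1.35 for Zim1 and 0.92 for Grb10 (adjusted p = 0.0175, 0.0286 and 0.0317), and -0.56 for Impact (adjusted p = 0.0134), against 12.2% of all genes tested. Each of the 4 calls was lost in at least 1 leave-out, and the marker sums of mesoderm, trophoblast and neuroectoderm given in the report moved with genotype at day 6 as well. Their part in these values was not tested.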

How the results depend on the processing

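The expression minimum was applied anew in each fit, so the number of imprinted genes tested could differ from 34. The shares of all genes called in these fits are not given here. The counts therefore do not show whether imprinted genes shifted more than other genes. Those called between genotypes at day 0 numbered 0 in the fit of all libraries and 2 without the day 6 libraries. At day 3 they numbered 0 to 1 in the leave-outs, 2 with the day 3 libraries alone and 3 without the day 6 libraries. At day 6 they numbered 6 to 14 in the leave-outs, with 6 without wild type replicate 1 and 8 without knockout replicate 2, and 0 with the day 6 libraries alone. Day 3 against day 0 in knockout gave 11 to 13 (11 without knockout replicate 1 of day 0 or knockout replicate 2 of day 3) in place of 17, and in wild type 13 to 14 in place of 19. Day 6 against day 0 gave 23 to 26 in wild type and 24 to 25 in knockout. The change of the genotype difference to day 6 gave 0 to 12 in the leave-outs and 0 with the compared libraries alone. Each of these fits held fewer libraries and so another shared spread. Without the day 6 libraries, the spread of those pairs no longer entered. The cause of the changed counts was not tested. The genotype difference of H19 reversed its sign in 3 leave-outs: it ran from -1.01 to 0.14 at day 3 (0.14 without knockout replicate 1) and from -0.85 to 1.85 at day 6 (-0.85 without wild type replicate 1 and -0.20 without knockout replicate 2). Knockout replicates were 2-fold apart on all 3 days in 1 imprinted gene with a pseudocount of 0.1, in 1 at 1.5-fold and in 2 under the setting added after seeing the data.

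The labels do not say what the replicate numbers mark, and the libraries were not treated as paired. Differences between replicates correlated over genes at -0.0807 to 0.0755 between days of a genotype, and at 0.0274, 0.0834 and 0.243 between genotypes of a day. With the replicate number as a block, 14 imprinted genes passed between genotypes at day 6 (Asb4, Igf2 and Peg3 gained, Ppp1r9a and Trappc9 lost), 1 at day 3, and 3 in the change to day 6 (Zim1 lost). The share of all genes called with the block is not given here. The largest of the correlations was that of day 6. Nnat and Peg13 differed one way between knockout replicates on all 3 days. So did other members, among them H19 (1.43, 2.44 and 2.72-fold on days 0, 3 and 6), Igf2r, Cdkn1c and Zim1. How many of all genes did so by direction alone was not counted.

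With 2 libraries a group and no deposited counts, depth limits the genes of low FPKM: estimated reads per library ran from 6 to 63 for Slc22a18 and 11 to 56 for Nap1l5, and from 67 to 840 for Plagl1 and 91 to 1312 for Zim1.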
